A study of Mus musculus with 16 samples.

Results

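The guanylate-binding proteins (Gbp) and the immunity-related GTPases (Irg) are GTPases whose genes are switched on by interferons. Interferon gamma (IFN-γ) binds its receptor, the kinases JAK1 and JAK2 pass the signal on, and IRF factors are among the proteins that then act through short promoter motifs. The proteins are best known in macrophages, where they coat and break the membranes around bacteria and parasites, and where Gbp2 and Gbp5 help to expose bacterial DNA to AIM2, a cytosolic DNA sensor. In all, 10 genes were followed, chosen by symbol when earlier results of these data were already known. They were Gbp2, Gbp3, Gbp5 and Gbp7 of the chromosome 3 cluster, Gbp4, Gbp6, Gbp8 and Gbp9 of the chromosome 5 cluster, and the Irg genes Irgm1 and Igtp (also known as Irgm3) on chromosome 11. They are 10 of the 53090 genes in the tables, and each was found once and had reads in every library.

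RNA was sequenced from mouse CD4+ T cells in 4 groups of 4 libraries. The Tn groups were naive splenic CD4+ T cells, purified by magnetic beads as CD44low CD62Lhigh cells, from C57BL/6 wild-type (WT) mice or from mice lacking Aim2 (Aim2-/-) on a C57BL/6 background, housed with the WT mice. The Treg groups were CD4+ T cells of the same genotypes after 2 days, or 48 h, in a culture that drives regulatory T cells: anti-CD3 and anti-CD28 antibodies, human TGFβ and mouse IL-2. The labels give no age and do not say whether a library came from 1 or several mice, so p-values measure the spread between these libraries. The cultured cells were not sorted for Foxp3, the factor that defines regulatory T cells, and the knockout was in the whole animal. Total counts ran from 22516394 to 34533297 per library, so that 3 reads were worth 0.0869 to 0.133 CPM, the count scaled to the size of the library.

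Aim2 itself was read first, as a check on the labels. Its level was 32.3 to 37.9 CPM in the 4 WT Tn libraries and 6.61 to 9.26 CPM in the 4 Aim2-/- Tn libraries. In Treg it was 35.7 to 43.3 CPM in WT and 7.17 to 10.8 CPM in Aim2-/-. The groups did not overlap, and Aim2 was 4.72-fold lower in Aim2-/- Tn (edgeR quasi-likelihood test, adjusted p = 1.1e-05) and 4.35-fold lower in Aim2-/- Treg (adjusted p = 0.00013). T cell markers were present throughout, with the 5 CD4 T cell markers summing to 1260 CPM or more, and the 6 markers of regulatory T cells summed to 60.5 to 129 CPM in Tn and 1770 to 2350 CPM in Treg. Of those 6, 5 were called as higher in Treg in each genotype. Ctla4, by the entry with more reads of its 2, was not called, at a log2 fold change of 0.59 in WT and -0.08 in Aim2-/-. RNA of other cells was also read. The 6 B cell markers summed to 423 to 575 CPM in Tn and 121 to 169 CPM in Treg, with Ms4a1 at 0 in all 16 libraries, and the 8 myeloid markers to 12.9 to 20.5 and 1.82 to 3.92 CPM, with S100a8 at 0 in all 16 and Lyz2 and S100a9 at 0 in Treg. The 5 natural killer markers summed to 13.1 to 35.3 and 1.33 to 6.15 CPM. These markers fell with culture, and their part in the culture results below was not tested.

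Position matters for this family, because close copies share reads. In the GRCm38 mouse genome (GENCODE M21 models) the chromosome 3 genes lie on the plus strand: Gbp5 (ENSMUSG00000105504.4) at chr3:142493978-142522344, Gbp7 (ENSMUSG00000040253.15) at chr3:142530342-142550149, Gbp3 (ENSMUSG00000028268.14) at chr3:142560026-142573209 and Gbp2 (ENSMUSG00000028270.12) at chr3:142620602-142638008. The chromosome 5 genes lie on the minus strand: Gbp8 (ENSMUSG00000034438.16) at chr5:105014150-105139540, Gbp9 (ENSMUSG00000029298.15) at chr5:105077630-105139539, Gbp4 (ENSMUSG00000079363.7) at chr5:105115767-105139586 and Gbp6 (ENSMUSG00000104713.4) at chr5:105270702-105293698. Irgm1 (ENSMUSG00000046879.7) spans chr11:48861968-48871683 on the minus strand and Igtp (ENSMUSG00000078853.8) chr11:58199556-58207591 on the plus strand. All 10 are protein-coding. The models of Gbp4, Gbp8 and Gbp9 overlap and begin close to the same base, and Igtp overlaps Irgm2. Of all 51-base words in the transcripts of Gbp6, 70.5% also occur in another gene, chiefly Gm43302 (64.8%) and Gbp10 (45.7%), and the share is 17.5% for Gbp8, 12.6% for Gbp7, 11.6% for Igtp and 0.293% to 7.73% for the other 6. The levels of Gbp6, and the split between Gbp4, Gbp8 and Gbp9, therefore depend on how reads were divided among copies.

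RefSeq promoters on GRCm38.p6 were at hand for 6 of the 10 genes, Gbp2, Gbp3, Gbp5, Gbp7, Irgm1 and Igtp. The 250 bases before the start site were searched on both strands for the interferon-stimulated response element GAAANNGAAA, a motif read by IRF proteins. All 6 held at least 1 match, against 978 of 32851 promoters (2.98%). The 30 bases around the matches are shown because they are the sequence that the genes share, whichever way they moved with culture. The matches are in capitals, each sequence reads 5′ to 3′ along its gene, and in Gbp3 and Irgm1 a pair of matches overlaps.
Gbp2: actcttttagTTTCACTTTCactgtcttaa
Gbp3: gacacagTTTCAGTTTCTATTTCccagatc
Gbp5: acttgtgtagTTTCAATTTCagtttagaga
Gbp7: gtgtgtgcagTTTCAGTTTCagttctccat
Irgm1: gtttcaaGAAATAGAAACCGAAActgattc
Igtp: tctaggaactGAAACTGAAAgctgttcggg
The windows lie at chr3:142620594-142620623 (Gbp2), chr3:142559992-142560021 (Gbp3), chr3:142496759-142496788 (Gbp5), chr3:142530273-142530302 (Gbp7), chr11:48871428-48871457 (Irgm1) and chr11:58199512-58199541 (Igtp). Matches ended 49 bases before the start in Gbp2, 29 in Gbp3, 155 in Gbp5, 43 in Gbp7, 14 in Irgm1 and 24 in Igtp. By the GENCODE models the windows of Gbp5 and Irgm1 lie within the gene, that of Gbp2 spans the start of the gene, and those of Gbp3, Gbp7 and Igtp lie upstream. Gbp3 has a further RefSeq start with no match in its 250 bases.

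**Figure D1:**
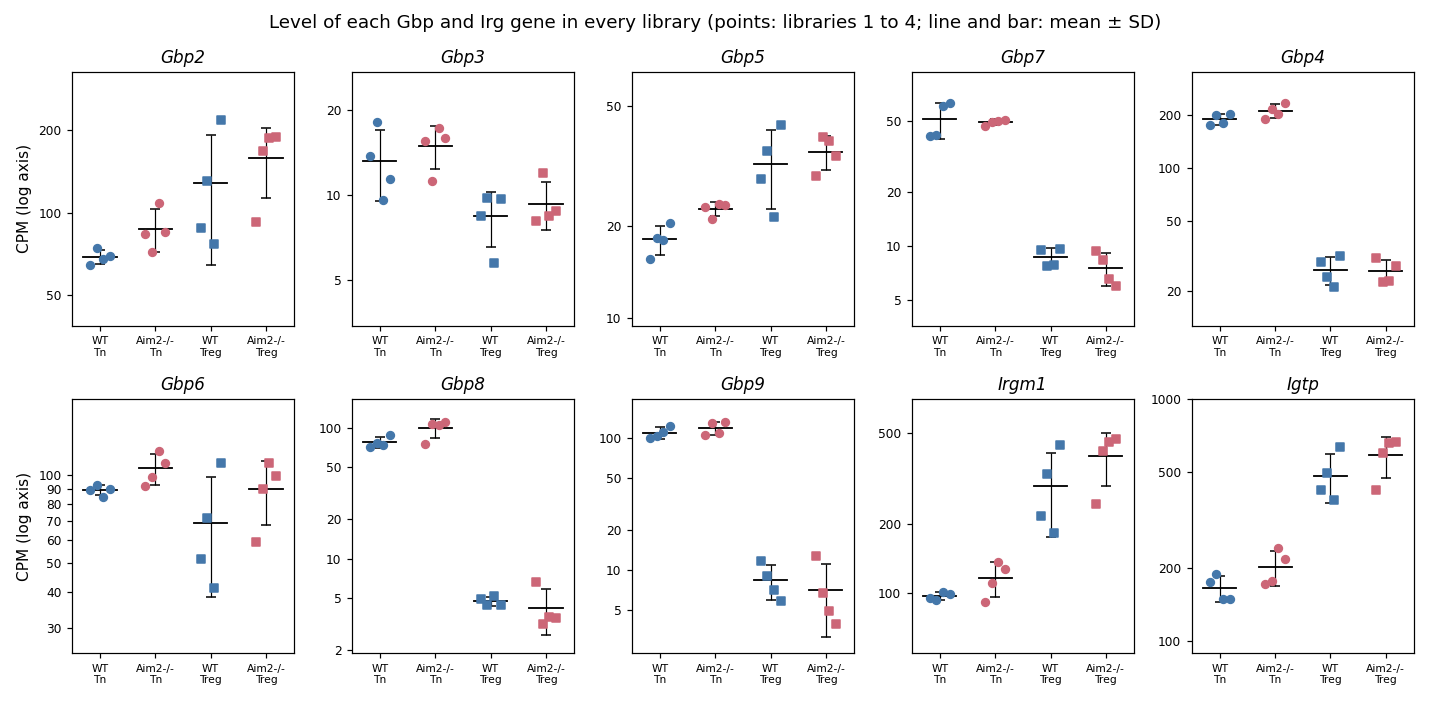
Level of each of the 10 genes in CPM (log axis, 1 panel a gene) in the 16 libraries. Points are libraries 1 to 4 of WT Tn, Aim2-/- Tn, WT Treg and Aim2-/- Treg, lines are means and bars SDs. Gbp7, Gbp4, Gbp8 and Gbp9 sit far lower in Treg than in Tn, while Irgm1 and Igtp sit higher.

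Compared per kilobase of exon, a scale that allows for gene length, Igtp was the highest of the 10 in every group, at a mean of 81.8 CPM per kb in WT Tn and 239 in WT Treg. The length used merges the exons of all annotated transcripts, from 2022 nt for Igtp to 7494 nt for Gbp4. Which transcripts the cells made was not examined, so the order holds for those lengths only. In WT Tn it was followed by Gbp2 (27.5 CPM per kb), Gbp4 (25.3), Gbp8 (22.6), Gbp9 (21.1), Irgm1 (16.7), Gbp6 (14.9), Gbp7 (9.2), Gbp3 (4.05) and Gbp5 (2.73). The ranges over the 4 libraries overlapped between Gbp2 and Gbp4, between Gbp4 and Gbp8, between Gbp8 and Gbp9 and between Gbp3 and Gbp5, so the order of those neighbours is not settled. WT Treg had another order: Igtp, Gbp2 (51 CPM per kb), Irgm1 (50.6), Gbp6 (11.5), Gbp5 (4.86), Gbp4 (3.53), Gbp3 (2.58), Gbp9 (1.64), Gbp7 (1.55) and Gbp8 (1.38). Here Gbp2 and Irgm1 overlapped, as did each neighbouring pair from Gbp5 down. Aim2-/- cells had the WT order but for a single exchange in each state, Gbp8 before Gbp4 in Tn and Irgm1 before Gbp2 in Treg, and both pairs overlapped.

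The comparison of Treg with Tn asks how the genes differ between freshly isolated naive cells and cells after the inducing culture. With culture the family split. In WT cells 4 of the 10 genes rose (Irgm1, Igtp, Gbp2 and Gbp5), 5 fell (Gbp3, Gbp7, Gbp4, Gbp9 and Gbp8) and Gbp6 did not pass the test, and in Aim2-/- cells the count and the genes were the same. So many genes changed with culture that 9 of 10 called is near the background. Of 13675 genes tested in WT, 76.9% were called (37.7% higher and 39.2% lower), and of 13713 in Aim2-/- 79.3% (39.1% and 40.2%). The median log2 fold change of the 10 was -0.55 in WT, beside -0.05 over all genes, and -0.47 in Aim2-/-, beside -0.04. The direction was the same in both genotypes for 10 of 10 genes, and for 94.8% of the 13378 genes tested in both, in comparisons that share no library. In bulk RNA a change in the number of cells of a type cannot be told apart from a change in RNA per cell.

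Irgm1 and Igtp, Irg proteins that lack the usual lysine of the GTP-binding loop and keep the other Irg proteins off host membranes, rose in both genotypes. Irgm1 was at 95.2, 92.8, 101 and 99.3 CPM in the 4 WT Tn libraries and at 218, 334, 183 and 443 CPM in WT Treg. Aim2-/- cells had 91.0, 111, 137 and 128 CPM in Tn and 245, 419, 459 and 471 CPM in Treg. Every Treg library was above every Tn library, and in both genotypes the Treg libraries were spread more widely than the Tn libraries. The rise was 2.96-fold in WT (log2 fold change 1.57, SE 0.25, adjusted p = 3e-04) and 3.39-fold in Aim2-/- (1.76, SE 0.20, adjusted p = 1.6e-05). Igtp was at 175, 189, 148 and 149 CPM in WT Tn and at 420, 496, 383 and 633 CPM in WT Treg. In Aim2-/- cells it was at 173, 177, 243 and 218 CPM in Tn and at 423, 599, 659 and 669 CPM in Treg. These groups did not overlap either, with a rise of 2.86-fold in WT (1.51, SE 0.16, adjusted p = 1.3e-05) and 2.88-fold in Aim2-/- (1.53, SE 0.16, adjusted p = 4.5e-06). With Irgm2, its overlapping neighbour, summed in, Igtp rose by 1.35 (WT) and 1.41 (Aim2-/-) on the log2 scale.

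On chromosome 3 the genes moved both ways. Gbp2 was at 64.4, 74.5, 67.8 and 69.6 CPM in WT Tn and at 88.1, 131, 76.8 and 218 CPM in WT Treg, a rise of 1.82-fold (log2 fold change 0.86, SE 0.29, adjusted p = 0.022) in which WT Treg 4 stood highest. In Aim2-/- cells Gbp2 was at 83.6, 71.8, 109 and 85.4 CPM in Tn and at 92.5, 167, 188 and 188 CPM in Treg, 1.81-fold higher (0.85, SE 0.21, adjusted p = 0.0035), with Treg 1 below the highest Tn library. Without WT Tn 1 or WT Tn 2 the WT call was lost (adjusted p = 0.058 and 0.05), and without WT Treg 4 the WT value was 0.53. Gbp5, which is known to promote assembly of the NLRP3 inflammasome, was at 15.7, 18.3, 17.99 and 20.6 CPM in WT Tn and at 28.7, 35.5, 21.5 and 43.3 CPM in WT Treg. Aim2-/- Tn had 23.2, 21.2, 23.7 and 23.5 CPM and Aim2-/- Treg 29.3, 39.6, 38.3 and 34.1 CPM. Gbp5 rose without overlap, 1.74-fold in WT (0.80, SE 0.20, adjusted p = 0.004) and 1.53-fold in Aim2-/- (0.62, SE 0.11, adjusted p = 0.00022).

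The other 2 genes of that cluster fell. Gbp7, a member reported to support NADPH oxidase assembly on pathogen vacuoles, was at 41.1, 41.8, 60.6 and 62.9 CPM in WT Tn and at 9.51, 7.79, 7.82 and 9.63 CPM in WT Treg. Aim2-/- cells had 46.8, 49.7, 49.9 and 51.1 CPM in Tn and 9.43, 8.40, 6.57 and 5.98 CPM in Treg. The gap was wide against the spread, 6.07-fold in WT (log2 fold change -2.60, SE 0.17, adjusted p = 5.2e-07) and 6.54-fold in Aim2-/- (-2.71, SE 0.14, adjusted p = 1.1e-08). Gbp3 changed little by comparison. It was at 13.8, 18.2, 9.63 and 11.4 CPM in WT Tn and 8.43, 9.78, 5.76 and 9.67 CPM in WT Treg, 1.61-fold lower (-0.69, SE 0.23, adjusted p = 0.02), and the groups overlapped. Aim2-/- cells had 15.5, 11.2, 17.2 and 15.9 CPM in Tn and 8.11, 11.99, 8.46 and 8.76 CPM in Treg, also 1.61-fold lower (-0.69, SE 0.17, adjusted p = 0.0028) and overlapping. The WT call of Gbp3 was lost without WT Treg 1 (adjusted p = 0.054) or WT Treg 3 (0.066). Summed over the cluster with Gbp2b, the level was 152 ± 12.4 CPM in WT Tn and 178 ± 74.9 CPM in WT Treg (SD, n = 4), a ratio of 1.17, and 1.21 in Aim2-/-.

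The largest falls of the 10 were in the overlapping genes of chromosome 5. Gbp8 was at 72.0, 76.4, 74.1 and 89.2 CPM in WT Tn and at 4.89, 4.46, 5.22 and 4.45 CPM in WT Treg, 16.7-fold lower (log2 fold change -4.06, SE 0.11, adjusted p = 1.8e-09). In Aim2-/- cells it was at 75.4, 108, 106 and 111 CPM in Tn and at 6.60, 3.16, 3.57 and 3.49 CPM in Treg, 24-fold lower (-4.58, SE 0.24, adjusted p = 3.4e-08). Gbp9 fell from 99.8, 103, 111 and 124 CPM in WT Tn to 11.7, 9.09, 7.12 and 5.89 CPM in WT Treg, by 13.2-fold (-3.72, SE 0.20, adjusted p = 1.6e-07). Its Aim2-/- values were 105, 130, 109 and 131 CPM in Tn and 12.8, 6.72, 4.89 and 3.94 CPM in Treg, 16.9-fold lower (-4.08, SE 0.32, adjusted p = 7.2e-07). Gbp4 was at 175, 201, 180 and 203 CPM in WT Tn and 29.3, 23.9, 21.1 and 31.4 CPM in WT Treg, 7.34-fold lower (-2.88, SE 0.13, adjusted p = 4.7e-08). In Aim2-/- cells Gbp4 was at 189, 216, 204 and 235 CPM in Tn and 30.7, 22.6, 22.8 and 27.8 CPM in Treg, 8.19-fold lower (-3.03, SE 0.12, adjusted p = 1.4e-09). No library of one state came near the other for these 3 genes. Summed, so that the split of reads among them plays no part, they were 9.51-fold lower in WT Treg and 11.5-fold lower in Aim2-/- Treg, with tested log2 fold changes of -3.28 (SE 0.11) and -3.54 (SE 0.16).

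Gbp6 was the exception on this chromosome. It was at 89.4, 92.6, 84.5 and 89.4 CPM in WT Tn and at 51.9, 71.4, 41.2 and 110 CPM in WT Treg, where 3 libraries lay below and 1 above all Tn values. Aim2-/- cells had 92.1, 98.5, 121 and 110 CPM in Tn and 59.1, 89.6, 110 and 99.4 CPM in Treg. Neither difference passed the test (log2 fold change -0.41, SE 0.26, adjusted p = 0.18 in WT and -0.25, SE 0.17, adjusted p = 0.2 in Aim2-/-). Without WT Treg 4 the WT value was -0.68 (adjusted p = 0.0053). Counts summed with Gbp10 and Gm43302, its near-identical copies, gave -0.48 and -0.32 with no call. In WT 8 of the 10 genes did not overlap between Tn and Treg, beside 72.9% of all genes, and in Aim2-/- 7 of 10, beside 74.8%.

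**Figure D2:**
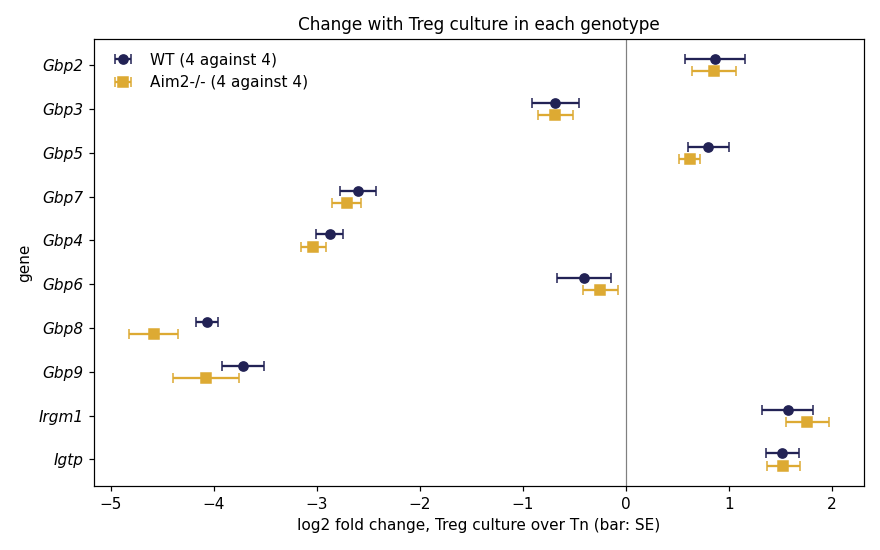
Log2 fold change of Treg over Tn for the 10 genes (x axis, bars are SE) in WT (circles) and Aim2-/- (squares), 4 libraries against 4 in each. Irgm1, Igtp, Gbp2 and Gbp5 lie to the right of 0 and Gbp8, Gbp9, Gbp4 and Gbp7 far to the left, in both genotypes.

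The genotype comparison within each state asks whether the genes differed between Aim2-/- and WT cells. Neither the labels nor the study's methods call the mice littermates. A difference between the mouse lines therefore cannot be told apart from an effect of the loss of Aim2. In Tn none of the 10 passed the test, where 0.231% of 13441 genes did. The values leaned one way. Of the 10, 9 were higher in Aim2-/- Tn, beside 52.7% of all genes, with a median log2 fold change of 0.26, beside 0.01. At an unadjusted p under 0.05, 6 of the 10 were higher, beside 5.59% of all genes, and none lower. They were Gbp5 (log2 fold change 0.34, SE 0.10), Gbp8 (0.36, SE 0.12), Gbp2 (0.34, SE 0.12), Gbp6 (0.25, SE 0.09), Igtp (0.30, SE 0.13) and Irgm1 (0.27, SE 0.12), with adjusted p of 0.38 to 0.47 by edgeR. Gbp3 (0.18, SE 0.20), Gbp4 (0.16, SE 0.09), Gbp9 (0.12, SE 0.10) and Gbp7 (-0.06, SE 0.14) were nearer to 0. Gbp5 was the 1 gene whose groups did not overlap, with 21.2 CPM as the lowest of Aim2-/- Tn and 20.6 CPM as the highest of WT Tn, beside 6.95% of all genes. DESeq2 and limma-voom called none of the 10 as well.

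Igtp, Gbp3, Gbp2, Irgm1, Gbp6 and Gbp8 differed more within the libraries numbered 3 and 4 than within those numbered 1 and 2, a contrast that was not itself tested. Gbp7 and Gbp9 did not follow, at 0.23 and 0.23 in libraries 1 and 2 and at -0.30 and 0.02 in 3 and 4, and Gbp4 was at 0.12 and 0.19. Within 3 and 4 Igtp was 0.62 higher on the log2 scale (SE 0.10, adjusted p = 0.015) and Gbp3 0.64 higher (SE 0.15, adjusted p = 0.047), and 516 of all genes were called. Libraries 1 and 2 alone gave -0.04 for Igtp and -0.24 for Gbp3, and called none of the 10. For Gbp5 the values were 0.40 in libraries 1 and 2 and 0.28 in libraries 3 and 4, for Gbp8 0.32 and 0.40, for Gbp2 0.18 and 0.49, for Irgm1 0.12 and 0.40 and for Gbp6 0.08 and 0.40. WT Tn differed between the number pairs in the upper pathway too: Ifngr1, a chain of the IFN-γ receptor, was at 286 and 298 CPM in WT Tn 1 and 2 and at 101 and 99.7 CPM in 3 and 4, the second chain Ifngr2 at 236 and 265 against 61.7 and 68.1 CPM, and Irf1 at 681 and 882 against 364 and 477 CPM. Within libraries 3 and 4 these genes were called as higher in Aim2-/- Tn, Ifngr1 by 0.69 on the log2 scale (edgeR adjusted p = 0.012), Ifngr2 by 0.83 (0.0088) and Irf1 by 0.84 (0.016), and within 1 and 2 they were at -0.55, -0.63 and 0.03 with no call. The labels do not say what the numbers share. The 3 red cell markers, the haemoglobin genes Hbb-bs and Hba-a1 and the haem synthesis gene Alas2, summed to 3.34 to 4.99 CPM in Aim2-/- Tn and 0.672 to 2.56 CPM in WT Tn, and the B cell markers, most of them Ighm, to 475 to 575 and 423 to 546 CPM. Single markers stood further apart, with no call by edgeR: Cd79a was 1.73-fold higher in Aim2-/- Tn (adjusted p = 0.4) and the myeloid gene Lyz2 2.02-fold (0.52), both without overlap, and Cd22 was 1.81-fold higher (0.46). The 8 myeloid markers together summed to 13.5 to 15.7 CPM in Aim2-/- Tn and 12.9 to 20.5 CPM in WT Tn. Their part in the Tn values was not tested.

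In Treg none of the 10 passed the edgeR test, nor DESeq2 or limma-voom, where 0.219% of 13221 genes did, and none reached an unadjusted p under 0.05, where 2.31% did. Of the 10, 6 were above 0, beside 50.1% of all genes, with values from -0.26 (SE 0.37, Gbp9) to 0.43 (SE 0.30, Irgm1), and no groups were apart, beside 2.26% of all genes. Gbp6 was at 0.38 (SE 0.30), Gbp2 at 0.30 (SE 0.34), Igtp at 0.28 (SE 0.18), Gbp3 at 0.15 (SE 0.19), Gbp5 at 0.13 (SE 0.20), Gbp4 at -0.03 (SE 0.15), Gbp8 at -0.18 (SE 0.24) and Gbp7 at -0.20 (SE 0.17). With these errors a difference of the size measured in Tn would not be detectable for most of the genes.

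**Figure D3:**
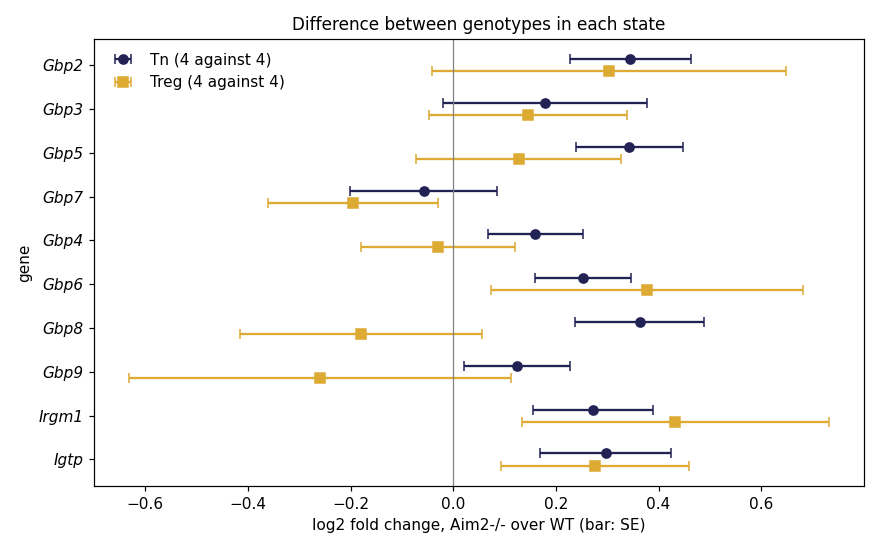
Log2 fold change of Aim2-/- over WT for the 10 genes (x axis, bars are SE) in Tn (circles) and Treg (squares), 4 libraries against 4 in each. In Tn 9 of the 10 points lie above 0, and in Treg the bars are wider and points lie on both sides.

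Whether the change with culture depended on the genotype was tested as an interaction over the 16 libraries. None of the 10 genes passed by edgeR, DESeq2 or limma-voom, where edgeR called 0.0205% of 14669 genes, and none had an unadjusted p under 0.05, where 3.49% did. The largest value was that of Gbp8, whose fall was deeper in Aim2-/- by 0.54 on the log2 scale (SE 0.26, adjusted p = 1 by edgeR). The others lay between -0.38 (SE 0.39, Gbp9) and 0.17 (SE 0.35, Irgm1).

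The rest of the IFN-γ pathway also moved in both directions with culture. Upstream, Ifngr1 fell 5.96-fold in WT (adjusted p = 3e-04) and 5.72-fold in Aim2-/- (6.9e-07), Ifngr2 5.17-fold (0.0034) and 5.37-fold (3.7e-05), and the kinase gene Jak1 by 1.61 and 1.46 on the log2 scale, while Jak2 was at -0.10 and 0.03 with no call. Among the transcription factors Irf8 rose by 6.93 and 7.12 on the log2 scale. Irf1, which binds the interferon-stimulated response element, fell 2.28-fold in WT (adjusted p = 0.0086), where the groups overlapped, and 2.23-fold in Aim2-/- (7.5e-05), Irf2 by 1.31 and 1.34, Irf9 by 1.54 and 1.71 and Stat2 by 0.92 and 0.95 on the log2 scale. In libraries 3 and 4 alone the WT calls of Irf1 (-0.62, adjusted p = 0.36) and Ifngr2 (-1.36, adjusted p = 0.098) were lost. Among 4 feedback genes Socs1, an inhibitor of JAK kinases, rose by 1.39 and 1.07, and Socs3 fell by 3.25 and 3.75.

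Other interferon-induced GTPases also moved both ways. Of the 10 tested in WT 6 rose and 3 fell, and of the 11 tested in Aim2-/- 7 rose and 4 fell, beside 37.7% and 39.2% of all genes in WT and 39.1% and 40.2% in Aim2-/-. The total called is near the 76.9% and 79.3% of all genes. Gm12250 (Irgb10, which attacks bacterial membranes) rose by 3.05 and 3.34 on the log2 scale, Ifi47 by 1.37 and 1.33, Tgtp1 by 0.98 and 0.83 and Gm4951 by 5.76 and 5.01. Gm4951 was only at 0 to 0.158 CPM in WT Tn and 0.164 to 0.562 CPM in Aim2-/- Tn. The WT level is around the worth of 3 reads, so the size of its rise is not settled. Gbp11, annotated as a polymorphic pseudogene beside Gbp6, fell by 4.06 and 4.72, as Gbp4, Gbp8 and Gbp9 did. The chromosome 5 cluster summed over its 6 genes was 4.24-fold higher in WT Tn than in WT Treg and 4.15-fold higher in Aim2-/- Tn than in Aim2-/- Treg.

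Genes best known from type I interferon mostly fell. Of 27 tested, where 39.2% of all genes fell in WT and 40.2% in Aim2-/-, 24 fell and 1 rose (Eif2ak2, by 1.06 and 1.14 on the log2 scale) in each genotype, with a median of -2.72 in WT and -3.20 in Aim2-/-. The antiviral genes Oas3 (-3.89 and -4.20), Irf7 (-4.73 and -5.15) and Oas1a (-5.12 and -5.38) were among them. Of 16 other IFN-γ targets tested, 4 rose and 7 fell in WT, and 5 rose and 7 fell in Aim2-/-, which is near or below the share over all genes. Wars, a tRNA synthetase, rose by 1.79 and 1.90, while the antigen presentation genes B2m (-1.10 and -0.98), Nlrc5 (-1.002 and -1.04) and Psmb10 (-0.89 and -1.17) fell. Nos2, the inducible nitric oxide synthase, was below the worth of 3 reads in all 4 WT Tn libraries and at 1.24 to 2.61 CPM in WT Treg, so no fold is given there. In Aim2-/- it rose by 4.05, from a Tn level that was also near that worth. Among 6 genes that drive IFN-γ production, 3 rose and 3 fell, where 76.9% and 79.3% of all genes were called: Tbx21 (T-bet), Il12rb1 and Il12rb2 rose by 4.10, 4.29 and 3.68 in WT and by 4.98, 4.18 and 4.65 in Aim2-/-, and Stat4 (-2.80 and -2.74) and Eomes (-2.41 and -2.51) were lower. Between genotypes no gene of these lists passed the test in either state with all libraries, and the calls within libraries 3 and 4 of Tn are given above. In Aim2-/- Tn 25 of 27 type I genes, 13 of 15 other IFN-γ targets and 9 of 9 other GTPases were above 0, beside the 52.7% of all genes given above. The transcription factor genes Stat2 (0.126), Irf1 (0.37), Irf2 (0.063), Irf8 (0.142) and Irf9 (0.182) were also above 0, with no call over all libraries. The remaining lists did not lean that way. Above 0 were 1 of 5 ligand, receptor and kinase genes (median -0.17) and 2 of 4 feedback genes. So were 3 of 6 genes that drive IFN-γ production.

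Ifng itself was low and uneven. In Tn it was at 3.49, 2.41, 3.93 and 4.19 CPM in WT and at 2.47, 2.74, 7.36 and 3.02 CPM in Aim2-/-. In Treg it was at 1.15, 4.49, 0.935 and 20.7 CPM in WT and at 2.41, 6.57, 13.6 and 25.4 CPM in Aim2-/-. It did not pass the test in WT (log2 fold change 0.92, SE 0.88, adjusted p = 0.36), and in Aim2-/- a rise of 1.61 (SE 0.62, adjusted p = 0.034) lost its call without Tn 1, 2 or 4 or Treg 3 or 4 (adjusted p = 0.052 to 0.16).

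Over the 8 Treg libraries the level of Ifng went with that of 5 of the 10 genes, a relation looked for after the values had been seen. Many genes went with Ifng in these libraries: r was 0.8 or above for 5 of the 10 and for 9.2% of 13102 genes, 0.9 or above for 4 of the 10 and 3.14%, and -0.7 or below for 1 of the 10 and 15.2%. On the log2 scale Pearson's r with Ifng was 0.97 for Gbp2 (exact permutation test over 8 libraries, two-sided, p = 0.00012, adjusted over 10 relations 0.00056), 0.96 for Irgm1 (p = 7.4e-05, adjusted 0.00056), 0.96 for Igtp and 0.96 for Gbp6 (each exact p = 0.00022, adjusted 0.00056) and 0.82 for Gbp5 (exact p = 0.0092, adjusted 0.018). Spearman's rho was 0.98 for Gbp2, Irgm1 and Igtp (each exact permutation p = 0.0004, adjusted 0.0013), 0.93 for Gbp6 (exact p = 0.0022, adjusted 0.0056) and 0.74 for Gbp5 (exact p = 0.046, adjusted 0.065). Leaving out the 2 libraries farthest from the median of Ifng left r at 0.93, 0.91, 0.93 and 0.92 for Gbp2, Irgm1, Igtp and Gbp6 and at 0.60 for Gbp5, so the relation of Gbp5 rested on those libraries. WT Treg 3, lowest in Ifng, was also lowest of the 8 in all 5. Gbp9 went the other way, with r = -0.77 (exact permutation p = 0.028, adjusted 0.047), rho = -0.81 (p = 0.022, adjusted 0.044) and r = -0.94 without the same 2 libraries. With 15.2% of all genes at r of -0.7 or below, this shows nothing particular to Gbp9. The remaining 4 had r of 0.54 (Gbp3), 0.20 (Gbp4), -0.46 (Gbp7) and -0.65 (Gbp8), with exact adjusted p of 0.12 to 0.62. Ifng was higher in Treg 3 and 4 than in Treg 1 and 2 of Aim2-/-, and the number pairs hold too few libraries for a value within each. The permutation test shuffled the 8 libraries freely over both genotypes and number pairs. Between genotypes, Treg libraries of the same number pair deviated together (mean r of 0.226). The mean between pairs, -0.226, mirrors it by construction, because deviations within a group cancel. The p-values make no allowance for libraries of a pair deviating together and may be too small.

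**Figure D4:**
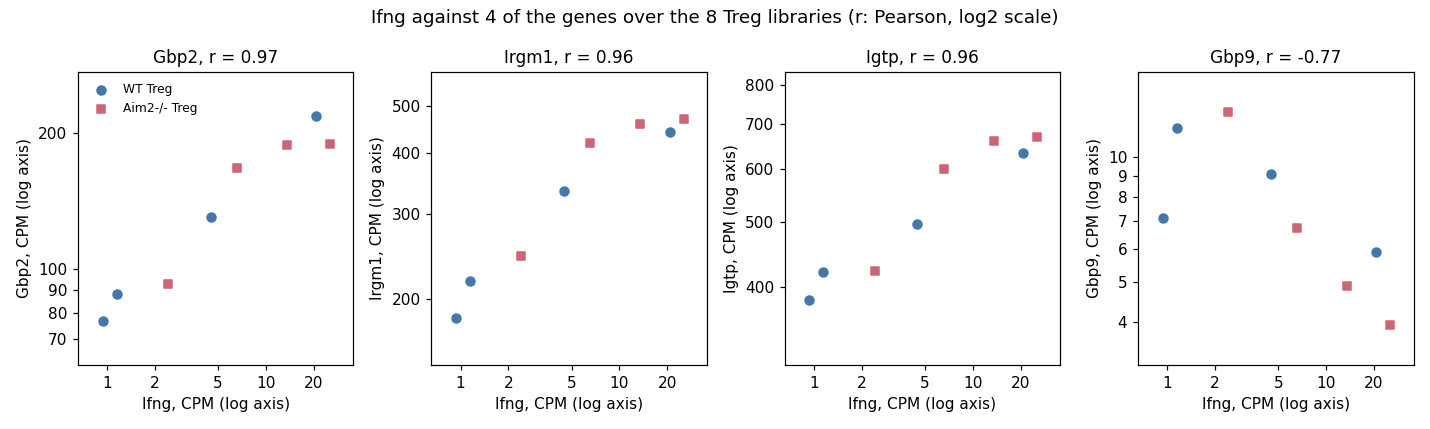
Level of Gbp2, Irgm1, Igtp and Gbp9 (y axes, CPM, log) against Ifng (x axes, CPM, log) in the 4 WT (circles) and 4 Aim2-/- (squares) Treg libraries. The points rise with Ifng in the first 3 panels (r of 0.97, 0.96 and 0.96) and fall with it for Gbp9 (r of -0.77).

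How the 10 genes varied together within groups was described by correlating, over the 16 libraries, their deviations from the group means. Gbp2, Gbp5, Gbp6, Irgm1 and Igtp formed one block, with r of 0.66 to 0.97 in its 10 pairs. Gbp4, Gbp7, Gbp8 and Gbp9 formed another with r of 0.31 to 0.70 in its 6 pairs. Between the blocks r had a median of -0.34 and reached -0.69 for Gbp2 with Gbp9. Within the 8 Treg libraries the first block had r of 0.85 to 0.99, but within the 8 Tn libraries it ran from -0.04 to 0.90, and there the median between blocks was 0.31. The blocks were drawn after the values had been seen, libraries share depth and handling, and genes that share reads are not independent. The first block holds the 4 genes that rose with culture and Gbp6, and the second holds 4 of the 5 that fell.

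**Figure D5:**
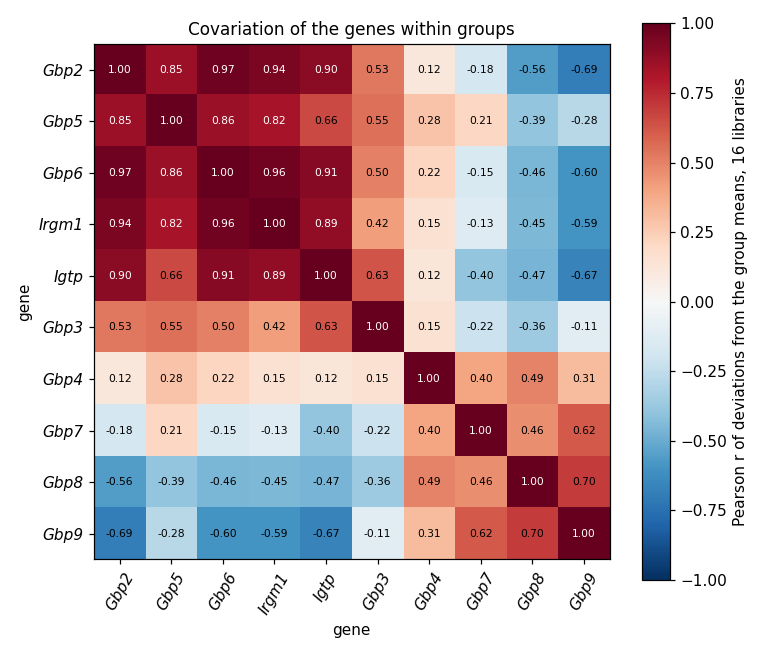
Pearson r between deviations from the group means of log2 CPM for each pair of the 10 genes over 16 libraries (colour and printed value, both axes list the genes). Gbp2, Gbp5, Gbp6, Irgm1 and Igtp form a block of high positive values in the upper left, and Gbp8 and Gbp9 are negative to it.

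By the rule set for likeness, the 5 other genes whose deviations were most like the mean of the 10 were 1500009L16Rik (r = 0.84 over 16 libraries), Tgm4 (0.84), Arl4d (0.82), Parp9 (0.82) and Gm12216 (0.82). Parp9 was well read, at a mean of 66.5 CPM in WT Tn, whereas 1500009L16Rik was at a mean of 0.0667 CPM there, below the worth of 3 reads. The choice hung on single libraries, since without WT Treg 3 or without WT Treg 4 none of the 5 stayed among the top 5.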

How the data were processed

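Counts were deposited as 1 table a library, with the RSEM expected count per gene, an estimate in which the authors let reads that fit several genes be divided among them, so values need not be whole. Per the study's methods, stranded poly(A) libraries were read as single ends of 51 nt, aligned with STAR to GRCm38 and counted with RSEM on a GENCODE mouse annotation. Tool versions and the strand setting are not given in the sources used here. Expected counts were rounded and analysed in R 4.3.3 with edgeR 4.0.16 (TMM factors, robust quasi-likelihood F test), after dropping genes that did not reach 10 counts in 4 or more of the libraries fitted, with Benjamini-Hochberg adjustment and a threshold of 0.05. The authors used limma-voom. That (limma 3.58.1) and DESeq2 1.42.0 served as alternatives, with other filters, factors and subsets of libraries. Standard errors are the size of the log2 fold change over the root of F. Ctla4, Il12rb1 and Itgam each had 2 entries, of which only the one with more reads was used. CPM uses TMM factors, and log2 CPM for likeness a prior count of 2. Scripts were tested on simulated data. The 10 genes, the gene lists and the choice of tests were made with earlier results of these data known. Named genes are the 10, Aim2, Ifng, Ifngr1, Ifngr2, Irf1, up to 5 called genes with the smallest p of each other list, and the 5 most alike. One gene of the rule and the results that need it are not reported here. Counts set a limit of 3 reads below which a level is not read.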

Additional observations from a re-analysis of the deposited data

Results flagged for a closer look

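In 40 groups of 4 libraries (10 genes in 4 groups), 3 had a library that stood apart by Dixon's test of the gap to its neighbour over the whole range, and chance alone marks about 1 group in 20. Gbp3 in Aim2-/- Treg 2 was at 11.99 CPM, where the other 3 libraries were at 8.11 to 8.76 CPM. Gbp8 in Aim2-/- Tn 1 was at 75.4 CPM, below 106 to 111 CPM in the other 3. Gbp8 in Aim2-/- Treg 1 was at 6.60 CPM, above 3.16 to 3.57 CPM in the others.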

How the results depend on the processing

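The number of genes called among all genes moved more than the calls of the 10. For Aim2-/- against WT in Tn it was 31, and 127 with DESeq2, 47 with no filter on low counts, 18 with at least 10 counts in every library, 50 with all 16 libraries in one fit, 51 with a term for libraries 1 and 2 against 3 and 4, 15 with libraries 1 and 2 alone, 516 with 3 and 4 alone and 17 to 28 leaving out 1 library. In Treg it was 29, and 52 with DESeq2, 17 with 10 counts in every library, 15 with libraries 1 and 2, 4 with 3 and 4 and 10 to 17 leaving out 1. The interaction had 3, and 10 with DESeq2, 0 with 10 counts in every library and 2 to 5 leaving out 1. Of the 10 genes, libraries 3 and 4 alone called 2 between genotypes in Tn, beside the 516 of all genes, and 5 with culture in WT. Leaving out 1 library called 8 to 10 of them with culture in WT, beside 9478 to 10058 of all genes. Over all alternative fits of culture in WT, the call of Gbp2 was lost in 4 of 18 and that of Gbp3 in 3 of 19. The calls of Gbp5 and Irgm1 were each lost in 1 of 18. In Aim2-/- the call of Gbp3 was lost in 1 of 19. Of the 5 most alike genes, 0 to 5 stayed when 1 library was left out, and 5 with a prior count of 0.5. Fits of 2 libraries against 2 have few degrees of freedom. With the replicate block the Tn, Treg and interaction counts were 29, 41 and 2, and none of the 10 was called. Culture then called 9 (WT) and 10 (Aim2-/-), Gbp6 being added at -0.28 (edgeR adjusted p = 0.027). The share of all genes called is not given for the culture fits with the replicate block or with libraries 3 and 4 alone. Those counts therefore show nothing particular to the 10. Same-numbered libraries did not all deviate together, with r of 0.023 to 0.302 between genotypes in Tn, -0.013 to 0.395 in Treg and -0.035 to 0.133 between states, so the numbers were not taken to pair them. Between genotypes libraries 1 and 2, and 3 and 4, deviated together, with a mean r of 0.126 in Tn and 0.226 in Treg. The means between those number pairs, -0.126 and -0.226, mirror these by construction, because deviations within a group cancel.

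Values that were not called with all libraries changed sign in places, and the cause was not tested. The sums of overlapping genes, and the most alike genes without 1 library, were added after the data had been seen. In Tn, Gbp3 was at -0.24, Gbp7 at 0.23, Igtp at -0.043 and Ifng at -0.17 with libraries 1 and 2 alone, and Gbp3 with Gbp7 and Gm43802 summed at 0. Ifngr1 turned to 0.058 with limma-voom and with the replicate block, 0.071 with the number term and 0.69 with libraries 3 and 4, and Ifngr2 to 0.081, 0.085, 0.099 and 0.83. In libraries 3 and 4 both were then called as higher (edgeR adjusted p = 0.012 and 0.0088). Leaving out 1 library gave -0.17 to 0.043 for Gbp7, -0.34 to 0.31 for Ifng, -0.34 to 0.16 for Ifngr1 and -0.45 to 0.19 for Ifngr2. In Treg, libraries 1 and 2 gave 0.045 for Gbp7, 0 for Gbp4 and 0.06 for Gbp8, the summed Gbp3 was at -0.023, and leaving out 1 library gave -0.001 to 0.23 for Gbp3, -0.028 to 0.30 for Gbp5 and -0.13 to 0.063 for Gbp4. Ifng with culture in WT was at -0.20 with limma-voom, -0.041 with the replicate block and with libraries 1 and 2, and -0.66 to 1.33 leaving out 1. In the interaction, Gbp2 was at 0.06 with limma-voom and 0.088 with libraries 1 and 2, Gbp3 at 0 with no filter and 0.40 with libraries 1 and 2, Aim2 at -0.10 with libraries 3 and 4, and Igtp at 0.002 with limma-voom, the replicate block and the number term, 0.013 with no filter, 0.21 with libraries 1 and 2 and 0.031 summed with Irgm2. Leaving out 1 library there gave -0.20 to 0.37 for Gbp2, -0.22 to 0.12 for Gbp3, -0.039 to 0.48 for Gbp6 and -0.10 to 0.16 for Igtp.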

Other observations

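The genes most like each of the covarying blocks were looked up after the blocks had been seen. For Gbp2, Gbp5, Gbp6, Irgm1 and Igtp, the 5 other genes with the highest r over 16 libraries were St6galnac4 (0.95), Iigp1 (0.95), Psmg4 (0.94), Gm11992 (0.94) and Il15ra (0.94). Iigp1, an Irg effector, had a mean of 123 CPM over the libraries, St6galnac4, a sialyltransferase, 144 CPM, and Il15ra, the receptor chain that presents IL-15, 9.21 CPM. For Gbp4, Gbp7, Gbp8 and Gbp9 they were 9930012K11Rik (0.92), Lax1 (0.92), Spo11 (0.91), Akr1c12 (0.87) and Abcd3 (0.85), of which Lax1, a membrane adaptor of lymphocyte receptors, was the most highly read at a mean of 58.2 CPM.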
